A study of Mus musculus with 24 samples.

Results

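The levels of 10 genes were followed through the parental strains B6 (C57BL/6J) and D2 (DBA/2J) and through 2 strains descended from both, BXD-67 and BXD-87. The genes are Fggy, Osbpl3, Sfi1, Unc5a, Hyi, Kbtbd12, Hddc3, Zfp33b, Pttg1 and Slc47a1, 10 of the 25369 genes listed. The genes were chosen by their read counts in D2 WT and B6 WT, which differed strongly, so that difference is given as a description and was not tested. The smallest was that of Slc47a1 (log2 1.25) and the largest that of Fggy (log2 -6.07), and 7.38% of all genes tested were called in that comparison. Each library was made from a left quadriceps taken at 25 weeks of age, from a mouse that was either healthy (WT) or with Lama2-CMD, a congenital muscular dystrophy caused by mutation of the laminin alpha-2 gene. The 8 groups were B6 WT, B6 CMD, BXD-67 WT, BXD-67 CMD, BXD-87 WT, BXD-87 CMD, D2 WT and D2 CMD, with 3 libraries each and 24 in all. The labels write the strain of the BXD groups as CMD-67 and CMD-87, in WT as in CMD mice, and give neither the Lama2 allele nor how it was brought onto each background.

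BXD strains are inbred lines from crosses of B6 and D2, so at most places in the genome a line carries either the B6 or the D2 allele. Where an expression difference between the parents is set by an allele at or near the gene itself, a BXD line is known to carry the level of the parent whose allele it inherited there. Where it is set elsewhere in the genome, the level follows the allele at that other place. No genotypes were analysed here. Whether the BXD mice came from the inbred lines themselves or from crosses of them with B6 carriers of the Lama2 mutation is not given in the sources used here, so the B6 share of their genomes is not known.

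Promoter sequences, 250 bases before to 50 after an annotated start, were found in RefSeq (GRCm38.p6) for 7 of the 10 genes, all but Sfi1, Hyi and Slc47a1. The reference is C57BL/6J, and D2 sequence was not used here. Shown are 4, 2 of genes higher in B6 WT (Fggy and Pttg1) and 2 of genes higher in D2 WT (Osbpl3 and Kbtbd12). Capitals mark matches on either strand to the TATA box, searched as TATAAA. They also mark the CCAAT box, searched as its letters, and the GC box, searched as GGGCGG. An E-box bound by muscle factors was searched as CAGCTG, and no match overlaps another in these 4 sequences. For Fggy, which has 2 annotated starts, the upstream one is shown (chr4:95557257-95557556, plus strand).
Fggy: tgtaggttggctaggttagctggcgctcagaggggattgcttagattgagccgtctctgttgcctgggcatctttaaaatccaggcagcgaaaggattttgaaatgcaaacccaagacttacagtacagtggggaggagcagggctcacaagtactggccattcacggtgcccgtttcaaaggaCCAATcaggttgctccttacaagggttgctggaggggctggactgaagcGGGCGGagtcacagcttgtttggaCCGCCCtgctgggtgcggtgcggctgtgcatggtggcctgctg
Pttg1 (chr11:43425932-43426231, minus strand): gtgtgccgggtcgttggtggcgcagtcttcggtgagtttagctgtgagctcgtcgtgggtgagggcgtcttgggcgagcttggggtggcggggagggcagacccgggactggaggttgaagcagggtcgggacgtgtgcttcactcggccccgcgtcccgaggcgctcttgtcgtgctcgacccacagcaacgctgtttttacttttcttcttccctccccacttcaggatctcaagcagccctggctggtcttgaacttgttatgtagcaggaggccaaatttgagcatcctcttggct
Osbpl3 (chr6:50456121-50456420, minus strand): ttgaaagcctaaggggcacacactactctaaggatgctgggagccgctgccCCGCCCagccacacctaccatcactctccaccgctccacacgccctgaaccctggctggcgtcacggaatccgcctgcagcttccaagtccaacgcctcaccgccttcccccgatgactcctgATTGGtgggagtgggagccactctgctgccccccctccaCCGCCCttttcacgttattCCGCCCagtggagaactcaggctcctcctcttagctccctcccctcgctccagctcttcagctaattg
Kbtbd12 (chr6:88627380-88627679, minus strand): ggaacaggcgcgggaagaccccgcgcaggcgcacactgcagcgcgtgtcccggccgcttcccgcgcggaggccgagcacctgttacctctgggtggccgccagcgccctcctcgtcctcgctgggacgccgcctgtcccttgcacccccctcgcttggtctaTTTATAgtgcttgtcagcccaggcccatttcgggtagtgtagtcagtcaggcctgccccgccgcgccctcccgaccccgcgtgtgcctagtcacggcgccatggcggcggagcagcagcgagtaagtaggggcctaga
The Fggy window held 1 CCAAT box and 2 GC boxes, the Osbpl3 window 1 CCAAT box and 3 GC boxes, and the Kbtbd12 window 1 TATA box. The Pttg1 window held none of these letters. Of 32851 promoters of the same length, 13.6% held the TATA box letters, 37.4% the CCAAT box, 35.7% the GC box and 16.3% the E-box.

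Depth was even, with 32292613 to 51715975 total exon reads per library, and all 10 genes were among the 14789 that passed the filter on low counts. Levels are CPM, reads scaled to a common library size. Differences are log2 values from edgeR's quasi-likelihood test, with p adjusted over all genes tested (Benjamini-Hochberg) and a threshold of 0.05. Summed skeletal muscle markers were lower in CMD than in WT libraries of each strain, without overlap: 162000 to 204000 CPM in WT and 106000 to 130000 in CMD of B6, 190000 to 198000 and 100000 to 109000 in BXD-67, 160000 to 173000 and 109000 to 155000 in BXD-87, and 145000 to 152000 and 89500 to 139000 in D2. By single markers, of which there were 8, CMD against WT called 0 higher and 2 lower in B6 and 2 and 4 in BXD-67. In BXD-87 it called 2 and 2, and in D2 0 and 0. The sum thus does not stand for each marker. The part of these markers in the CMD differences below was not tested. Lama2 itself was 36.5 to 50.3 CPM in B6 WT and 16 to 23.9 in B6 CMD, and 27.4 to 35.8 in BXD-87 WT and 12.9 to 19.5 in BXD-87 CMD (adjusted p = 0.00642 and 0.00939). In BXD-67 it was 24.3 to 28.4 in WT and 20 to 33.8 in CMD (adjusted p = 0.912), and in D2 23.8 to 42.5 and 23.3 to 29.0 (adjusted p = 0.244), so Lama2 RNA separated the labels in B6 and BXD-87 and not in BXD-67 or D2. Y-linked reads matched the sex label in 20 libraries and went against it in 4, all of them D2: 2 labelled WT and male (libraries 19 and 21) had the reads of females, and 2 labelled CMD and female (22 and 24) those of males. Lama2 RNA did not separate the D2 labels, so an exchange between D2 WT and D2 CMD libraries cannot be told from these files, and D2 CMD against D2 WT rests on the labels. The CMD differences in D2, the F tests and the counts of placements are therefore also given without these 4 libraries. This alternative was chosen after seeing the data. It leaves 1 D2 WT and 1 D2 CMD library, which are assumed to vary like the other groups. Those left, libraries 20 and 23, both have female labels and female reads, as they also would after an exchange of the whole groups. Leaving out the 4 libraries therefore cannot guard against such an exchange. Genotype and strain were taken from the labels throughout, and no sex term was fitted. By Y-linked reads, every D2 WT and every BXD-67 CMD library was female. D2 CMD libraries 22 and 24 and BXD-67 WT library 7 were male. Sex was therefore uneven between WT and CMD in these strains, while B6 and BXD-87 had both sexes in each genotype. In whole muscle, fewer cells of a type and less RNA per cell cannot be told apart.

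The main pattern was that the BXD strains lay nearer the B6 level than the D2 level. Each BXD group was compared with both parents of the same genotype and called B6-like where it differed from D2 and not from B6, and D2-like in the reverse case. BXD-67 WT was B6-like at 10 of 10 genes, and BXD-87 WT at 9. In the CMD groups each BXD strain was B6-like at 8 of 10. In all, 35 of 40 placements were B6-like, 2 were D2-like, both of them Hyi in BXD-87, and 3 could not be placed. Without libraries 16 and 23 the counts were 34 and 1, and without the 4 D2 libraries of doubtful label 33 and 2. The WT placements share their parental libraries with the choice of the genes, which fixes that B6 WT and D2 WT lie apart but not on which side a BXD group falls. P was adjusted within each comparison. With few genes called against B6, a difference from B6 needed a smaller unadjusted p to pass than 1 from D2. B6-like therefore does not show equality with B6. For Fggy, Sfi1 and Pttg1 in BXD-87 WT, Unc5a in BXD-67 WT and Zfp33b in BXD-87 CMD, the 95% interval of the difference from B6 excluded 0. Over all genes tested, far fewer differed between BXD and B6 than between BXD and D2. BXD-67 WT differed from B6 WT in 0.0203% of genes and from D2 WT in 10.7%, and BXD-87 WT in 0.0541% and 6.86%. In the CMD groups these shares were 0% and 11.4% for BXD-67 and 0.811% and 34.3% for BXD-87. Of all genes tested, 10.7% were B6-like and 0.0203% D2-like in BXD-67 WT, and 6.85% and 0.0473% in BXD-87 WT. In BXD-67 CMD 11.4% were B6-like, and in BXD-87 CMD 33.8% were B6-like and 0.291% D2-like. B6-like was thus the commoner of the 2 placements over all genes tested too.

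**Figure D1:**
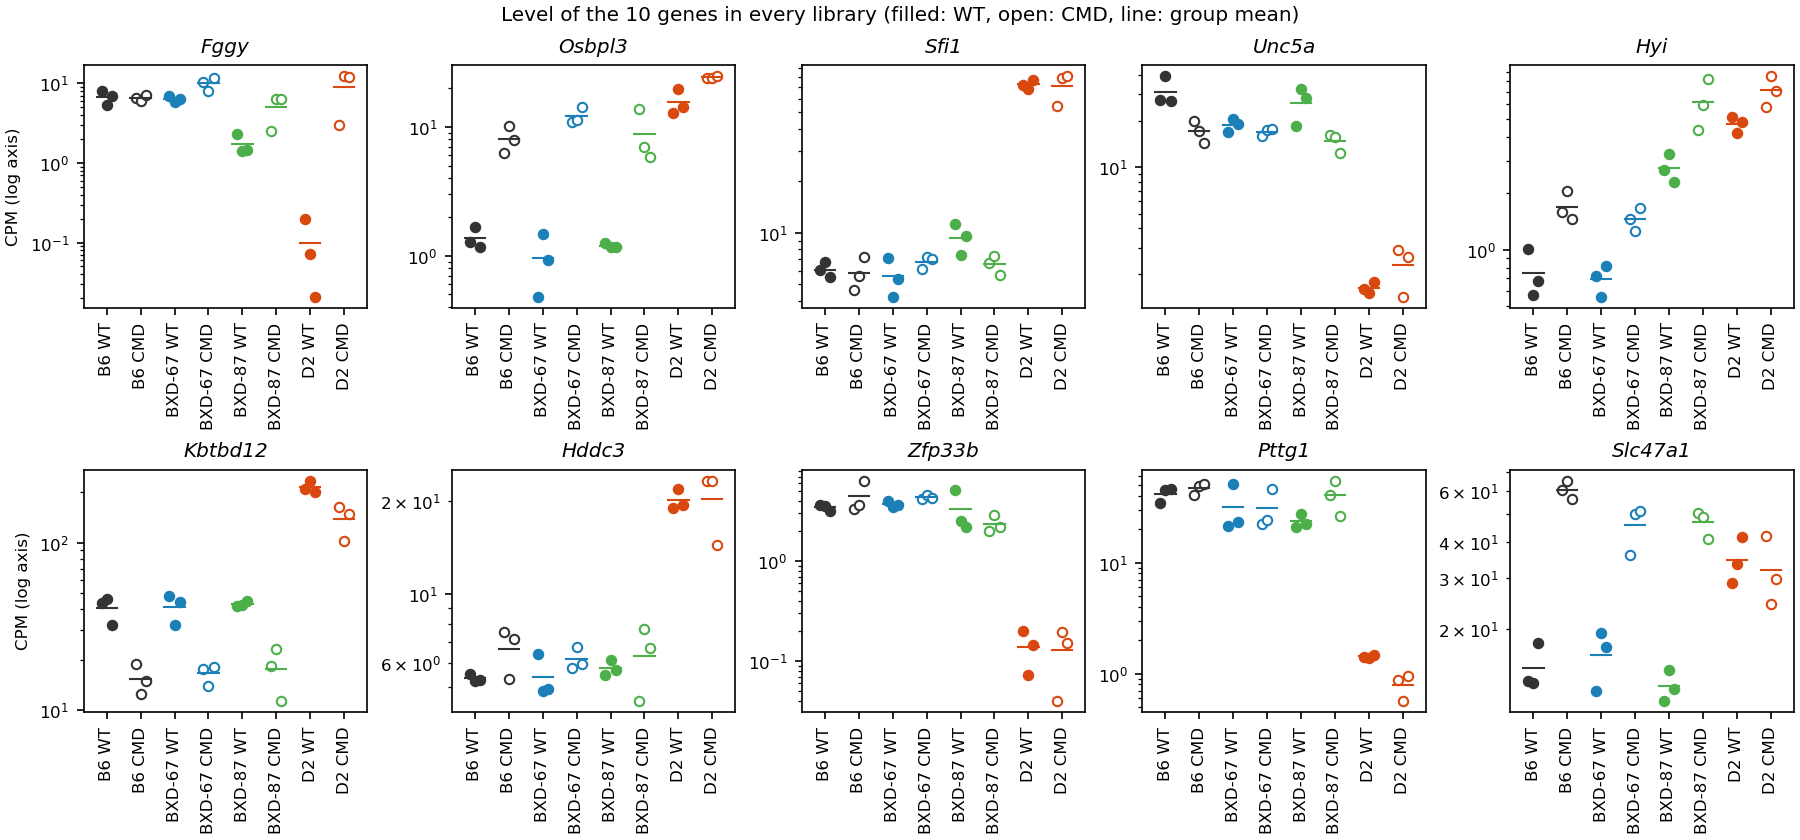
Level of each of the 10 genes in every library, in CPM on a log axis, by group. Filled points are WT, open points are CMD and lines are group means. In Sfi1, Unc5a, Kbtbd12, Hddc3, Zfp33b and Pttg1 the 6 D2 libraries lie apart from the other 18.

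The 6 D2 libraries lay apart from all 18 others in 6 of the 10 genes, in WT and CMD alike (2.54% of all genes tested did): Sfi1, Kbtbd12 and Hddc3, which were high in D2, and Unc5a, Zfp33b and Pttg1, which were low. The other 4, Fggy, Osbpl3, Hyi and Slc47a1, overlapped once the CMD groups were included. These libraries include the D2 WT and B6 WT ones by which the genes were chosen, so the count of 6 is a description and is not read against all genes. D2 CMD against B6 CMD, which shares no library with the choice of the genes, called 9 of 10, against 21.3% of all genes, and Fggy was the exception. It called 9 of 10 without the 4 D2 libraries of doubtful label too. Of these, 8 kept the direction seen in WT and Slc47a1 took the opposite one.

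Pttg1 encodes securin, the inhibitor of separase that holds sister chromatids together until anaphase. In D2 WT it was at 1.42, 1.38 and 1.48 CPM and in B6 WT at 34.7, 45.1 and 45.9. The BXD-67 WT libraries held 21.6, 50.7 and 23.3 CPM and those of BXD-87 WT 21.1, 27.3 and 22.3. Every BXD library thus lay above every D2 library, and the BXD-87 WT libraries all lay below those of B6 WT. The log2 difference between BXD-87 WT and D2 WT was 4.04 (95% interval 3.29 to 4.79, adjusted p = 1.42e-06). Between BXD-87 WT and B6 WT it was -0.83 (-1.48 to -0.19, adjusted p = 0.483). In CMD mice Pttg1 was at 0.881, 0.566 and 0.942 CPM in D2 and 41.0, 49.1 and 50.9 in B6, a log2 difference of -5.88 ± 0.39 (SE, adjusted p = 2.04e-08). CMD against WT did not pass in any strain for Pttg1 (log2 0.16 in B6, -0.05 in BXD-67, 0.78 in BXD-87 and -0.84 in D2). Summed markers of dividing cells were 1.92 to 5.17 CPM in WT libraries and 0.865 to 7.59 in CMD libraries. Of 11 tested genes for separase, cohesin and their partners, 1 was higher and none was lower in D2 CMD than in B6 CMD (11% and 10.4% of all genes were).

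Sfi1 encodes a centrin-binding protein of the centrosome. It was at 72.5, 68.8 and 77.1 CPM in D2 WT and at 6.04, 6.73 and 5.5 in B6 WT. BXD-67 WT held 7.15, 4.24 and 5.41 CPM and overlapped B6 WT. BXD-87 WT held 11.2, 7.37 and 9.5 CPM, above all 3 B6 libraries and far below D2. That small step from B6 was 0.62 on the log2 scale (0.20 to 1.04) and did not pass (adjusted p = 0.409), while the difference from D2 WT was -2.96 (adjusted p = 7.01e-08). In CMD the D2 and B6 means were 71.7 ± 15 and 5.84 ± 1.29 CPM (SD, n = 3 each), a 12.3-fold ratio (edgeR adjusted p = 6.59e-09). Both BXD strains lay with B6 there, at positions 0.06 and 0.05 on a log2 scale that runs from 0 at B6 to 1 at D2. CMD against WT did not pass in any strain for Sfi1. Of 7 tested genes of centrins and their partners, 1 was higher in D2 CMD than in B6 CMD.

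Kbtbd12 encodes a protein with kelch repeats and a BTB domain, a family known for adaptors of cullin ubiquitin ligases. Per length it was the most abundant of the 10 genes in D2 WT, with 89.6 ± 7.63 TPM (SD, n = 3). In B6 WT it was at 17 ± 3.64 TPM, below Pttg1 at 49.2 ± 9.5 (SD, n = 3 each). In CPM the D2 WT libraries held 210, 235 and 200, B6 WT 43.6, 46.0 and 32.2, BXD-67 WT 47.9, 32.0 and 44.2, and BXD-87 WT 41.9, 42.6 and 44.7. The 3 latter groups overlapped each other and none reached D2. In CMD it was lower in B6 (18.8, 12.4 and 14.9 CPM), BXD-67 (17.6, 13.9 and 18.1) and BXD-87 (18.3, 23.1 and 11.3). It fell by 1.40, 1.32 and 1.29 on the log2 scale there (SE 0.23 each, adjusted p = 0.000986, 0.00077 and 0.000952). In D2 CMD it was at 163, 102 and 149 CPM, below all D2 WT libraries, with a log2 difference of -0.64 ± 0.23 and an adjusted p of 0.0519, just outside the threshold. It passed in DESeq2 (adjusted p = 0.0342) and without any 1 of 15 libraries, and was -1.23 without the 4 D2 libraries of doubtful label (adjusted p = 0.0817). The summed skeletal muscle markers given above were lower in CMD in the same strains, though not each marker was called lower. The test of whether the CMD effect differed between the 4 strains did not pass for Kbtbd12 (adjusted p = 0.299). The BXD strains thus had B6 levels in both genotypes. Of 14 tested kelch and BTB genes known in muscle, none was higher and 3 were lower in D2 CMD than in B6 CMD (11% and 10.4% of all genes were). Among them were Kbtbd3 (log2 -1.08) and Kbtbd13 (-1.01). In WT Kbtbd3 was at 4.88 ± 0.41 CPM in D2 and 4.9 ± 0.431 in B6, and Kbtbd13 at 26.4 ± 2.87 and 16.9 ± 3.2 (SD, n = 3 each). Of the 14, 7 fell and none rose in D2 CMD against D2 WT (20.2% of all genes were called). Kbtbd12 was higher in D2 than in B6 in both genotypes.

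Hddc3 encodes an HD-domain phosphatase, also known as MESH1. D2 WT held 18.9, 21.8 and 19.4 CPM and B6 WT 5.51, 5.23 and 5.26. All 12 BXD libraries lay between 4.51 and 7.7 CPM, and none overlapped D2. Against D2 the BXD differences ran from -1.89 to -1.68 on the log2 scale, and each passed. Against B6 they ran from -0.11 to 0.11, with intervals no wider than -0.52 to 0.52, and none passed. CMD did not change Hddc3 past the threshold in any strain (log2 0.01 to 0.32). Of 4 other tested genes of HD-domain and nucleotide hydrolases, 1 was higher and 1 lower in D2 CMD than in B6 CMD. Between 94.3% and 100% of the Hddc3 reads were unique, depending on the group.

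Unc5a encodes a receptor for netrin, a guidance cue best known in the nervous system. B6 WT held 27.6, 39.4 and 27.0 CPM and D2 WT 1.6, 1.52 and 1.79. BXD-87 WT, at 18.7, 32.4 and 28.4 CPM, overlapped B6 WT, and BXD-67 WT, at 17, 20.6 and 19.2, lay just below it. That step of BXD-67 WT was -0.73 (-1.19 to -0.26) and did not pass (adjusted p = 0.267). All BXD groups differed from D2, by 2.68 to 4.01. In CMD Unc5a was at 20, 17.3 and 14.4 CPM in B6 and 16.4, 15.9 and 12.4 in BXD-87. It fell there by 0.87 and 0.83 on the log2 scale (SE 0.22 each, adjusted p = 0.0128 and 0.0132). In BXD-67 the value was -0.14 (adjusted p = 0.688) and in D2 0.50 (adjusted p = 0.144). The CMD effect differed between the strains (F test, adjusted p = 0.0363), but the call was lost with sex as labelled (0.101), without the 4 D2 libraries of doubtful label (0.347; log2 -0.12 in D2) and without any 1 of 15 libraries (up to 0.0964, without D2 WT library 20). The B6 fall also ended without B6 WT library 2 (adjusted p = 0.0871), B6 CMD library 5 (0.0523) or 6 (0.0577), and the BXD-87 fall without BXD-87 WT library 14 (0.0713) or with only those 6 libraries (0.116). Of 7 tested genes of netrins and their receptors, 1 rose (Neo1, log2 0.88) and 1 fell (Dcc, log2 -4.80) in D2 CMD against B6 CMD. Dcc was near the floor there, at 0.246 ± 0.126 CPM in B6 CMD and 0.00561 ± 0.00971 in D2 CMD (SD, n = 3 each).

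Zfp33b, a zinc finger gene, was at 3.63, 3.53 and 3.16 CPM in B6 WT and 0.2, 0.0724 and 0.146 in D2 WT, where it rested on 19 reads in all 3 libraries. BXD-67 WT held 4.03, 3.51 and 3.67 CPM and BXD-87 WT 5.17, 2.51 and 2.21. In CMD the BXD-87 libraries, at 2.02, 2.86 and 2.19 CPM, lay below those of B6 (3.29, 3.66 and 6.39) and BXD-67 (4.2, 4.59 and 4.26). The log2 difference from B6 CMD was -0.91 (-1.64 to -0.19) and did not pass (adjusted p = 0.158). From BXD-67 CMD it was -0.88 (-1.61 to -0.16, adjusted p = 0.171), and it passed with sex as labelled (-1.22, adjusted p = 0.0291). No strain changed with CMD past the threshold (log2 -0.48 to 0.37). In CMD as in WT each BXD strain lay far above D2, by log2 differences of 4.14 to 5.02.

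Low-level transcripts of brain genes moved with the same split. Their list, chosen after values were seen, held 10 genes such as Snap25 and Slc1a2, which encode a synaptic vesicle fusion protein and a glutamate transporter. Together they made 18.9 to 54.9 CPM in the 18 libraries that are not D2 and 0.479 to 1.5 CPM in the 6 D2 libraries. Their part in the values of Unc5a, Pttg1, Zfp33b and Fggy was not tested. Any difference in how D2 muscle was handled and the D2 strain cannot be told apart. Over the 24 libraries the gene most like Sfi1 was Slc1a2 (Pearson r = -0.983 of log2 CPM), which was also most like Pttg1 (0.974). Slc28a2b was most like Unc5a (-0.956), Hddc3 (0.965) and Zfp33b (-0.964). Glo1, the methylglyoxal detoxifying enzyme, was most like Kbtbd12 (0.953). These correlations rest on the same split of D2 from the rest and are given as descriptions.

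**Figure D2:**
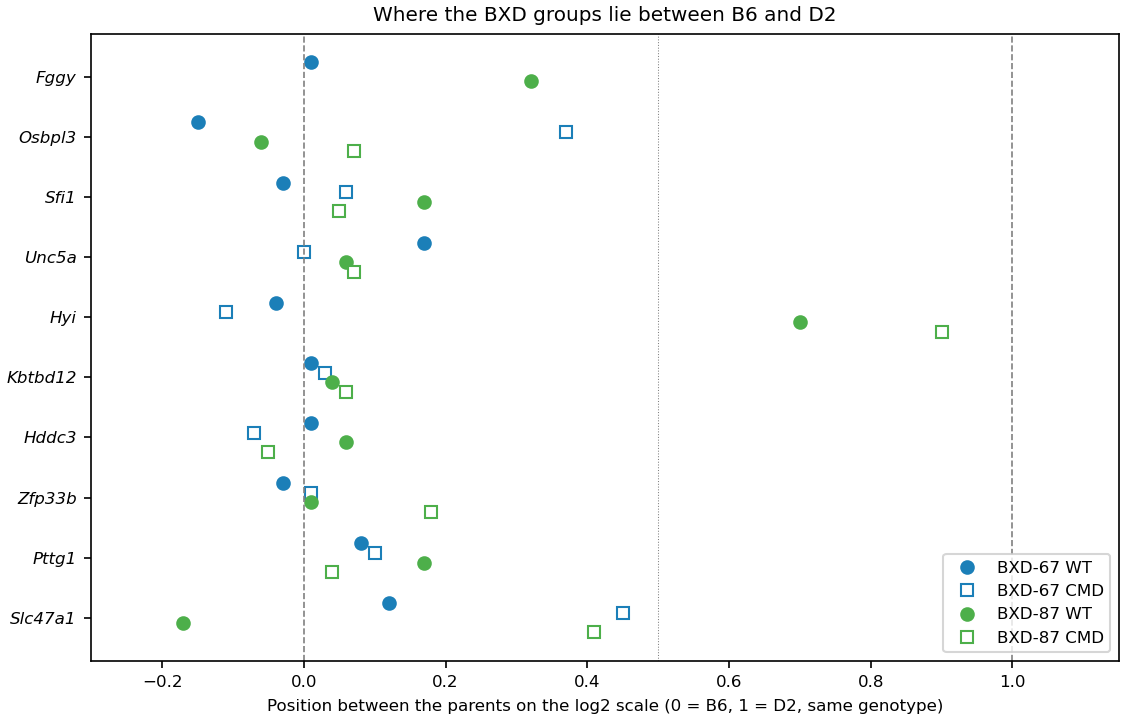
Position of each BXD group between the parents of the same genotype on the log2 scale, where 0 is the B6 level and 1 the D2 level. Circles are WT and squares are CMD. Hyi in BXD-87 is at 0.70 in WT and 0.90 in CMD, and no other point passes 0.5. Fggy has no CMD position because D2 CMD and B6 CMD did not differ.

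Hyi, which encodes hydroxypyruvate isomerase, was the exception among the placements. B6 WT held 1.01, 0.568 and 0.674 CPM, BXD-67 WT 0.72, 0.558 and 0.816, BXD-87 WT 2.67, 3.24 and 2.29, and D2 WT 5.16, 4.22 and 4.83. BXD-67 lay on B6, while BXD-87 lay between the parents without overlap and nearer to D2. BXD-87 WT was higher than B6 WT by 1.87 ± 0.27 on the log2 scale (adjusted p = 0.00448). It was lower than D2 WT by a difference of -0.79 (-1.31 to -0.28, adjusted p = 0.056), and this passed in DESeq2 (adjusted p = 0.0253), with only the libraries compared (0.0457), without libraries 16 and 23 (0.028) and without BXD-87 CMD library 16 (0.0348) or 18 (0.0452). The D2-like placement of Hyi in BXD-87 WT therefore depends on the fit. In CMD mice Hyi was at 1.59, 2.05 and 1.45 CPM in B6, 1.45, 1.26 and 1.66 in BXD-67, 4.38, 5.93 and 8.18 in BXD-87 and 5.8, 8.49 and 7.1 in D2. There BXD-87 overlapped D2 (log2 difference -0.21, -0.71 to 0.29) and exceeded B6 by 1.86 (adjusted p = 0.00336). By edgeR's fit of all 24 libraries, Hyi was also the only one of the 10 genes called between the 2 BXD strains. Fggy in WT and Zfp33b in CMD passed there only under alternatives, given with those genes. For Hyi, BXD-87 exceeded BXD-67 by 1.96 in WT (adjusted p = 0.00162, with 0.0473% of all genes called). In CMD it did so by 2.08 (adjusted p = 0.000466, with 1.49% called). The WT difference from B6 missed the threshold without B6 WT library 2 (adjusted p = 0.0928) or 3 (0.0655), and when only the 6 libraries compared were fitted (0.21), with a log2 value of 1.72 to 1.88. In CMD the difference from B6 also missed it when only the libraries compared were fitted (log2 1.87, adjusted p = 0.295).

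On top of that difference Hyi rose with CMD in 3 strains. The log2 change was 1.18 in B6 (adjusted p = 0.00624), 1.06 in BXD-67 (0.00898) and 1.18 in BXD-87 (0.00264). In D2 it was 0.59 (0.09 to 1.09, adjusted p = 0.0875), and the test across strains did not pass (0.508). The files list Hyi as protein-coding, and RefSeq GRCm38.p6 lists it as a transcribed pseudogene. The gene most like Hyi over the libraries was AU022252 (Pearson r = -0.940), followed by Psmg4 (0.877) and Aldh4a1 (-0.874). AU022252 and Aldh4a1 lie on chromosome 4, as Hyi does. AU022252 was lower in D2 CMD than in B6 CMD by a log2 difference of -1.01. Its mean was 49.7 ± 9.35 CPM in B6 WT, 40.6 ± 3.57 in BXD-67 WT, 31.6 ± 3.60 in BXD-87 WT and 18.5 ± 1.69 in D2 WT (SD, n = 3 each). In CMD its position was -0.11 in BXD-67 and 0.83 in BXD-87.

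The neighbours of the 10 genes were then counted, as genes within 5 Mb that differed between D2 CMD and B6 CMD. Of 151 such neighbours, 19 were nearer D2 than B6 in BXD-67 CMD (12.6%, exact binomial 95% interval 7.75 to 19) and 17 in BXD-87 CMD (11.3%, 6.7 to 17.4). Among all 3151 genes that differed, the shares were 14.7% and 13.4%, within those intervals. Near Hyi, 2 of 27 were nearer D2 in BXD-67 and 5 of 27 in BXD-87, so most of its neighbours lay nearer B6 in both strains. Near Fggy, on the same chromosome, the counts were 1 and 0 of 7. Neighbours are not independent of each other.

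Fggy, which encodes a carbohydrate kinase that acts on ribulose, was the gene whose parental gap closed with CMD. B6 WT held 8.03, 5.32 and 6.87 CPM, BXD-67 WT 6.96, 5.77 and 6.31, BXD-87 WT 2.33, 1.4 and 1.46, and D2 WT 0.2, 0.0724 and 0.0208. The D2 WT values rest on 13 reads in 3 libraries. BXD-67 overlapped B6, and BXD-87 lay between the parents and overlapped neither. BXD-87 WT differed from D2 WT by 4.12 (2.86 to 5.37, adjusted p = 0.000275). From B6 WT it differed by -1.96 (-2.89 to -1.02, adjusted p = 0.186), which passed in DESeq2 (adjusted p = 0.00355), without D2 CMD library 22 (0.0457) and without the 4 D2 libraries of doubtful label (0.0287). Its B6-like placement, at position 0.32, therefore depends on the test. BXD-87 WT differed from BXD-67 WT by -1.87 (-2.81 to -0.94, adjusted p = 0.241). That difference passed in DESeq2 (adjusted p = 0.00832) and without D2 CMD library 22 (0.0479).

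In CMD mice Fggy was at 2.96, 12.3 and 12 CPM in D2 (libraries 22, 23 and 24) and at 6.57, 6.01 and 7.25 in B6, and the 2 groups overlapped. BXD-67 CMD held 10.4, 7.96 and 11.6 CPM and BXD-87 CMD 2.54, 6.35 and 6.3. Within D2 all 3 CMD libraries exceeded all 3 WT libraries, with a 93.1-fold ratio of means and a log2 change of 6.51 ± 0.61 (adjusted p = 3.93e-06), 5.99 to 7.54 with single libraries left out and 7.32 without the 4 D2 libraries of doubtful label (adjusted p = 0.000326). In BXD-87 it rose by 1.55 ± 0.44 (adjusted p = 0.0187), a call that ended without BXD-87 WT library 14 (0.0672) or 15 (0.075), BXD-87 CMD library 18 (0.0557), or when only those 6 libraries were fitted (0.0964). In BXD-67 the value was 0.65 (adjusted p = 0.29) and in B6 -0.03 (0.972). The CMD effect differed between the strains (F test, adjusted p = 0.00218, and 0.0114 without those 4 libraries). Summed adipocyte markers were 160 to 593 CPM in D2 WT and 125 to 2530 in D2 CMD, macrophage markers 60.0 to 103 and 95.5 to 341, and Schwann cell markers 55.9 to 73.9 and 59.1 to 293. In D2 CMD against D2 WT, 1 of 5 adipocyte, 3 of 6 macrophage and 2 of 5 Schwann cell markers rose, and in D2 CMD against B6 CMD 0, 2 and 3 were higher. Their part in the result was not tested. Of 9 tested genes of sugar and glyoxylate metabolism, none rose and 1 fell in D2 CMD against B6 CMD. The gene most like Fggy was Cyp46a1 (Pearson r = 0.839).

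**Figure D3:**
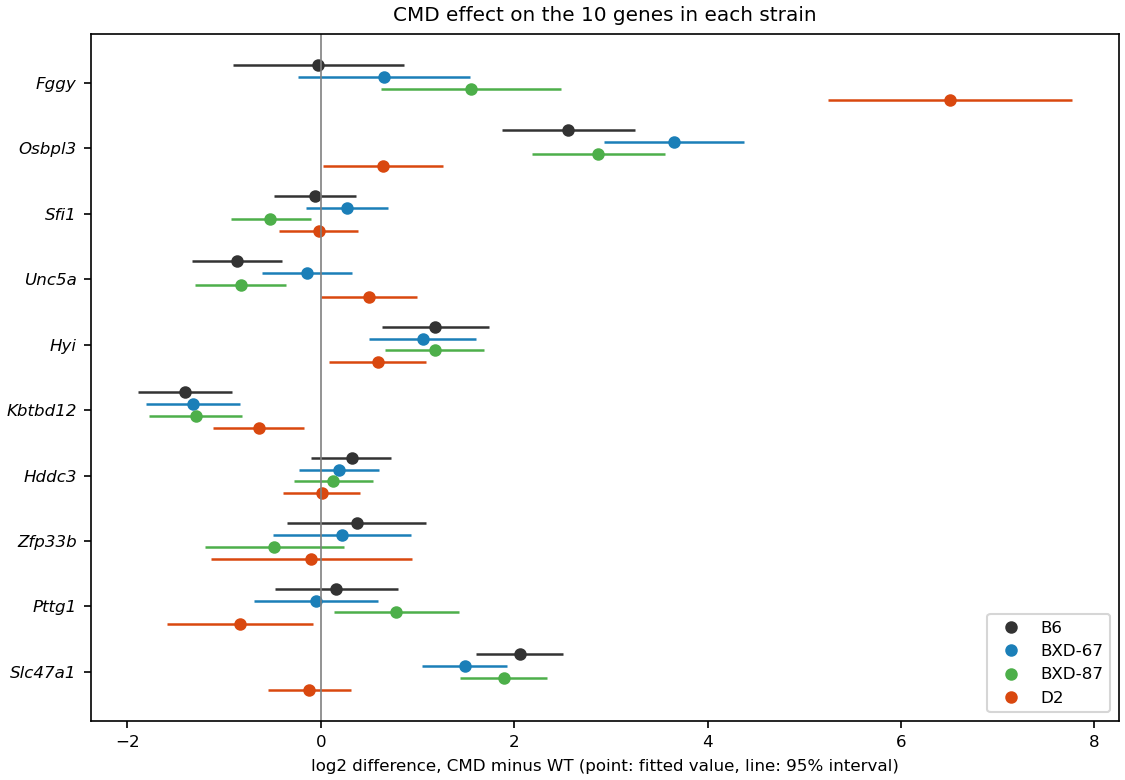
Fitted log2 difference between CMD and WT for each gene in the 4 strains, with 95% intervals as lines. Osbpl3 and Slc47a1 lie well above 0 in B6, BXD-67 and BXD-87 and are at 0.64 and -0.12 in D2, and Fggy in D2 is at 6.51.

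Osbpl3 encodes an oxysterol-binding protein relative that moves lipids at membrane contact sites. It was at 12.8, 19.6 and 14.1 CPM in D2 WT, against 1.28, 1.67 and 1.17 in B6 WT, 0.48, 1.48 and 0.925 in BXD-67 WT and 1.26, 1.16 and 1.17 in BXD-87 WT. D2 WT lay above all other WT libraries. CMD libraries held 6.26, 10.1 and 7.89 CPM in B6, 10.8, 11.2 and 14.3 in BXD-67, 13.6, 6.91 and 5.85 in BXD-87 and 24, 24 and 24.6 in D2. The log2 rise was 2.56 ± 0.33 in B6, 3.65 ± 0.35 in BXD-67 and 2.87 ± 0.33 in BXD-87 (adjusted p = 0.00015, 1.06e-05 and 3.61e-05). In D2 the difference was 0.64 (0.02 to 1.26, adjusted p = 0.127), with all 3 CMD libraries above all 3 WT libraries. It passed with sex from Y-linked reads as a term (0.98, adjusted p = 0.0249) and with only the libraries compared (0.67, adjusted p = 0.0401), and was 0.26 without the 4 D2 libraries of doubtful label (adjusted p = 0.821). The effect differed between the strains (F test, adjusted p = 0.00401), a call lost without those 4 libraries (0.0856). D2 CMD still exceeded B6 CMD, by 1.58 ± 0.30 (adjusted p = 0.00133). BXD-67 CMD differed from D2 CMD by -1.0 (adjusted p = 0.0366), a call lost when any of 9 single libraries was left out (adjusted p up to 0.121, without BXD-67 CMD library 10) and without the 4 D2 libraries together (0.289). Of 11 tested genes of the same family, 3 rose and none fell in D2 CMD against B6 CMD, among them Osbpl5 (log2 1.01).

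Slc47a1 encodes MATE1, an exporter of organic cations known mainly from kidney and liver. D2 WT held 28.9, 33.6 and 41.7 CPM and B6 WT 13.1, 12.9 and 17.8. BXD-67 WT, at 12.1, 19.3 and 17.3 CPM, and BXD-87 WT, at 11.2, 14.4 and 12.3, both overlapped B6 WT and not D2 WT. Without the 4 D2 libraries the difference of BXD-67 WT from D2 WT was -1.05 and did not pass (adjusted p = 0.0515). In CMD the order of the parents turned round: B6 held 60.7, 65.4 and 56.2 CPM and D2 42.0, 24.4 and 29.7. D2 CMD was lower than B6 CMD by a log2 difference of -0.93 ± 0.21 (adjusted p = 0.0039). BXD-67 CMD, at 36.1, 49.9 and 51.1 CPM, and BXD-87 CMD, at 50.5, 48.9 and 41.1, lay below B6 CMD, and neither differed from it past the threshold (adjusted p = 0.855 and 0.327). BXD-87 CMD exceeded D2 CMD by 0.55 (adjusted p = 0.0467), though 1 library of each overlapped. That call was lost without libraries 16 and 23 together (0.35, adjusted p = 0.315) and without any 1 of 7 libraries (adjusted p up to 0.148, without D2 CMD library 23). CMD raised Slc47a1 by 2.06 ± 0.22 in B6, 1.49 ± 0.21 in BXD-67 and 1.89 ± 0.21 in BXD-87 (adjusted p = 2.91e-05, 0.000156 and 2.93e-05). In D2 the value was -0.12 (-0.55 to 0.31, adjusted p = 0.716), and -0.49 without the 4 D2 libraries of doubtful label (adjusted p = 0.373). The effect differed between the strains (F test, adjusted p = 0.00218, and 0.0316 without those libraries). Kidney markers were at or near 0, with at most 0.331 CPM summed over 5 genes. Of 3 tested relatives that transport organic cations, edgeR and DESeq2 called 0 between D2 CMD and B6 CMD, with 1 at an unadjusted p under 0.05. The gene most like Slc47a1 was Prdx2 (Pearson r = 0.929).

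Over the 10 genes, CMD against WT called 5 in B6 (18.4% of all genes were called), 4 in BXD-67 (21.7%), 6 in BXD-87 (20.8%) and 1 in D2 (20.2%). Hyi, Osbpl3 and Slc47a1 rose and Kbtbd12 fell in B6, BXD-67 and BXD-87. The B6 and D2 comparisons use the WT libraries on which the genes were chosen. In the F test across strains 4 of the 10 passed (4.67% of all genes did): Fggy, Osbpl3, Unc5a and Slc47a1, of which Fggy and Slc47a1 also passed without the 4 D2 libraries of doubtful label. The F test too uses the WT libraries on which the genes were chosen, so the count is not read against all genes. Which pairs of strains differ was not tested. BXD-67 did not differ from B6 in any of the 10 genes by edgeR's test, in WT (log2 -0.73 to 0.15, with 1 gene, Unc5a, at an unadjusted p under 0.05 and 0 called by DESeq2) or in CMD (log2 -0.61 to 0.59, with 0 and 0).

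To place the 10 genes among others like them, genes called between D2 and B6 in both WT and CMD with a log2 difference of at least 1 were counted. There were 484, and 26 (5.37%) lay nearer D2 in both genotypes in BXD-67 and 32 (6.61%) in BXD-87. Hyi was the only one of the 10 among these, in BXD-87. Median positions were 0.02 in WT and 0.15 in CMD for BXD-67, and 0.17 and 0.12 for BXD-87. Of 11 tested genes listed as known to differ between B6 and D2, 2 were higher in D2 CMD than in B6 CMD, Alad (log2 1.72) and Glo1 (0.76), and 3 were lower, among them Gpnmb (-3.67), in which D2 is known to carry a stop codon. Alad, an enzyme of haem synthesis, was at 15 ± 2.76 CPM in B6 WT, 32.5 ± 3.80 in BXD-67 WT, 15.1 ± 0.764 in BXD-87 WT and 53.7 ± 2.28 in D2 WT (SD, n = 3 each). For Alad, on chromosome 4 like Hyi and Fggy, it was thus the WT mean of BXD-67 and not of BXD-87 that lay away from B6. In CMD the means were 15.3 ± 0.561 CPM in B6, 26.9 ± 11.6 in BXD-67, 17.6 ± 3.65 in BXD-87 and 50.5 ± 12.1 in D2 (SD, n = 3 each). The position of BXD-67 was 0.47 there, and BXD-67 CMD against B6 CMD called 0 of all genes.

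**Figure D4:**
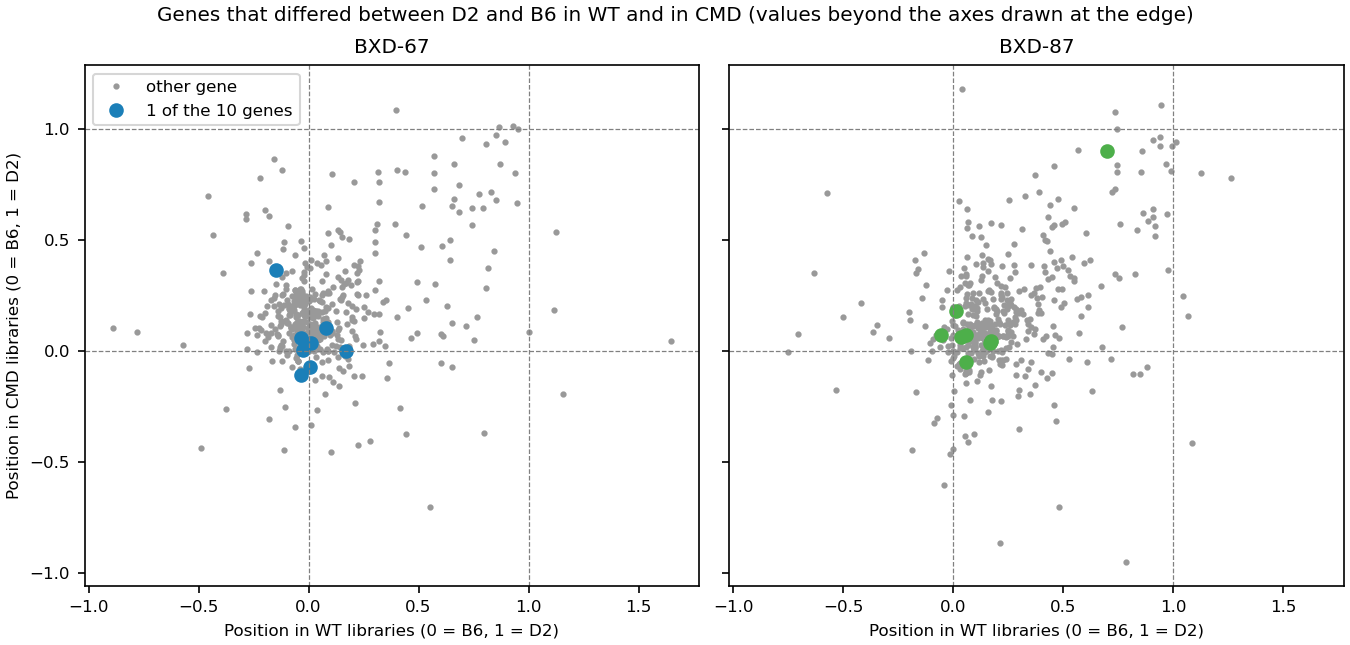
Position of 484 genes between B6 (0) and D2 (1) in WT libraries (horizontal) and CMD libraries (vertical), for BXD-67 and BXD-87, with those of the 10 genes that qualify as large points. Most genes lie near 0 in both strains, and Hyi is the large point near 1 in BXD-87.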

How the data were processed

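RNA was measured in 24 libraries from a stranded mRNA kit, aligned to GRCm39 per the submitters' processing notes. The sources used here do not give the aligner or counter. The authors deposited raw counts per gene (total exon reads, with unique exon reads beside them) and TPM, which per the file headers stand in columns of their own; TPM was used only to compare levels between genes. Unique reads were 97.7% to 98.2% of total reads. No 2 libraries held identical values.

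Genes were filtered with filterByExpr (minimum count 10, minimum total 15), leaving 14789, for edgeR 4.0.16 under R 4.3.3. A quasi-likelihood model (glmQLFit, then glmQLFTest) had 1 term per group and no sex term, with TMM scaling. P-values were adjusted by Benjamini-Hochberg over all genes, with a threshold of 0.05. The labels name no animals, so p-values measure the spread between these samples. The method was tested on simulated data. DESeq2 1.42.0, RLE size factors, unique reads, no filter, sex terms, only the libraries compared, libraries 16 and 23 left out, D2 libraries 19, 21, 22 and 24 left out (chosen after seeing the data) and each library left out were alternatives. Chromosomes and neighbours came from GENCODE M21 (GRCm38) by gene ID, which placed 14759 genes, and RefSeq symbols, which placed 16. The members, lists and tests were chosen with earlier results of these data known. Named genes were the 10 members, the 3 genes most correlated with each, the 2 neighbours with the smallest p, and up to 4 per list with the smallest p in D2 CMD against B6 CMD. Not all are printed. Likeness used log2(CPM + 0.5).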

Additional observations from a re-analysis of the deposited data

Results flagged for a closer look

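In 4 of the 10 genes the CMD effect differed between the 4 strains by edgeR's F test over the interaction terms. For Fggy (adjusted p = 0.00218) the log2 change was -0.03 in B6, 0.65 in BXD-67, 1.55 in BXD-87 and 6.51 in D2. For Slc47a1 (adjusted p = 0.00218) it was 2.06, 1.49, 1.89 and -0.12 in the same order. For Osbpl3 (adjusted p = 0.00401) it was 2.56, 3.65, 2.87 and 0.64. For Unc5a (adjusted p = 0.0363) it was -0.87, -0.14, -0.83 and 0.50. Pairs of strains were not tested. The D2 and B6 values use the WT libraries by which the genes were chosen, so that D2 stands apart here is no independent evidence. Of the 6 D2 libraries, 4 have a sex label that their Y-linked reads contradict, and without them the adjusted p was 0.0114 for Fggy, 0.0316 for Slc47a1, 0.0856 for Osbpl3 and 0.347 for Unc5a.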

How the results depend on the processing

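No called value changed sign under any alternative. Values that were not called did, such as Hyi in BXD-87 CMD against D2 CMD (-0.21, and 0.15 without libraries 16 and 23), Osbpl3 in BXD-87 CMD against B6 CMD (0.11 and -0.34) and Pttg1 in BXD-87 WT against BXD-67 WT (-0.44, and 0.08 without BXD-67 WT library 8). The count of called genes for D2 CMD against D2 WT, 1, became 2 with sex as labelled, 3 with sex from Y-linked reads, 2 with no filter, 2 in DESeq2, 2 with only the libraries compared and 2 without libraries 16 and 23. With only the libraries compared, BXD-87 CMD against BXD-87 WT fell from 6 to 2, and BXD-87 WT against B6 WT, BXD-87 WT against BXD-67 WT, BXD-87 CMD against B6 CMD and BXD-87 CMD against BXD-67 CMD each fell from 1 to 0. In DESeq2, and without D2 libraries 19, 21, 22 and 24, the 2 BXD-87 WT counts were 2 each, the F test count fell from 4 to 2 without those libraries, and BXD-87 CMD against BXD-67 CMD was 2 with sex as labelled. The cause was not tested. Leaving out single libraries gave 1 to 3 for D2 CMD against D2 WT, 0 to 2 for BXD-87 WT against B6 WT, 1 to 2 against BXD-67 WT, 5 to 7 for BXD-87 CMD against BXD-87 WT, 4 to 5 for B6 CMD against B6 WT, 7 to 8 and 7 to 9 for the BXD-67 CMD and BXD-87 CMD comparisons with D2 CMD, and 3 to 4 for the F test. Placements were recounted in only some of the alternatives: the 35 B6-like ones became 36 with sex as labelled, 35 with unique reads and 34 without libraries 16 and 23. They were not recounted with only the libraries compared. There Hyi in BXD-87 did not differ from B6 in WT (edgeR adjusted p = 0.21) or CMD (0.295), and it differed from D2 in WT (0.0457). Neither D2-like placement would hold in those fits. Low reads limit Fggy and Zfp33b in D2. Over all genes, BXD-67 CMD against B6 CMD called 0 in edgeR (874 at an unadjusted p under 0.05) and 34 in DESeq2. No paired analysis was possible because the library numbers 1 to 24 are each used once, so no 2 groups share a number.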

Other observations

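Among the 484 genes that separated D2 from B6 in both genotypes, those nearer D2 in BXD-87 were most numerous on chromosome 17, with 9 of 29, against 1 of 29 in BXD-67. One of them was H2-Ea, a class II histocompatibility gene that B6 is known not to express, at position 1.13 in WT and 0.80 in CMD of BXD-87. The chromosome and the gene were chosen after their values were seen. With a log2 difference of at least 2 in place of 1, an alternative chosen after seeing the data, 339 genes remained, and 5.9% and 7.37% were nearer D2 in BXD-67 and BXD-87.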
